A study of Mus musculus with 12 samples.

Results

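Iron-sulfur (Fe-S) clusters are small cofactors of iron and inorganic sulfide that carry electrons or sit in the active sites of enzymes. They are first built inside mitochondria, from iron that enters through the mitoferrins and from sulfur taken from cysteine, on a scaffold protein, and are then handed to carrier proteins that place them into client enzymes. Liver cells hold many such clients, in respiration, lipoic acid synthesis, the aconitases and purine and pyrimidine metabolism. The 9 genes described here were chosen by name from this pathway, out of the 16728 genes listed: the mitoferrins Slc25a37 and Slc25a28, the cysteine desulfurase gene Nfs1, the scaffold gene Iscu, the co-chaperone gene Hscb, and the carriers and late-acting factors Glrx5, Isca1, Isca2 and Nfu1. All 9 passed the filter on low counts, which kept 12275 genes.

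RNA was sequenced from mouse primary hepatocytes, liver cells cultured in DMEM with serum after isolation. The 4 groups were Fxr-/- cells under FAC (KO FAC), Fxr-/- cells under AC (KO AC), wild-type cells under FAC (WT FAC) and wild-type cells under AC (WT AC), with 3 libraries in each. FAC or AC was given at 100 µM for 24 h. The labels give both agents only as abbreviations, and the series title speaks of iron overload. Fxr is the bile acid receptor encoded by Nr1h4. All cells carried the C57BL/6 strain label, and the labels name neither the ages nor the part of Nr1h4 that was removed. Whether separate animals or cultures gave the 3 libraries is not stated either. The p-values therefore reflect the spread of these libraries only, and that spread may be technical.

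The libraries held 16464494 to 18335700 estimated reads each. Levels below are counts relative to the TMM-scaled library total (CPM), which compares libraries, unless FPKM, which also divides by gene length, is named. Differences are log2 fold changes with their standard errors (SE) from edgeR's quasi-likelihood test, adjusted by Benjamini-Hochberg over all 12275 genes, and "called" means an adjusted p below 0.05. Nr1h4 RNA stood at 3.54, 4.45 and 4.89 CPM in KO FAC, 9.35, 6.97 and 7.44 CPM in KO AC, 6.997, 6.95 and 7.68 CPM in WT FAC, and 12.97, 15.6 and 13.1 CPM in WT AC libraries, so that it was lower in KO within each treatment but not absent. Tfrc, the transferrin receptor gene, whose RNA is known to be destabilised when iron is plentiful, averaged lower under FAC in both genotypes (log2 fold change −1.79 ± 0.17 in KO, adjusted p = 2.09e-05, and −1.13 ± 0.16 in WT, adjusted p = 0.000517). Summed hepatocyte markers (Alb, Ttr, Apoa1, Cps1, Serpina1c, Tat and Cyp2e1) reached 22880 to 33560 CPM in every library, while leukocyte markers summed to at most 1.15 CPM. Macrophage markers, mostly Cd68, summed to 727.6 to 863.4 CPM in KO FAC, 555.2 to 688.1 CPM in KO AC, 652.3 to 703.7 CPM in WT FAC and 348.4 to 424.4 CPM in WT AC libraries. Cholangiocyte markers, mostly Spp1 in WT cells, summed to 149 to 165 CPM in KO FAC, 92.4 to 103.9 CPM in KO AC, 342.7 to 386.4 CPM in WT FAC and 384.9 to 403.3 CPM in WT AC. Of the 4 tested, 2 were called higher and 1 lower in KO under FAC, and 0 and 1 under AC. Under FAC Spp1 averaged 82.3 CPM in KO and 337.1 CPM in WT. Krt19 (24.6 and 8.18 CPM), Sox9 (46.4 and 23.7 CPM) and Epcam (2.43 and 1.82 CPM) averaged higher in KO FAC. Krt7 had 0 to 4 reads per library. Of the markers tested, 2 of 4 macrophage, 3 of 5 endothelial and 3 of 4 stellate ones were called lower in KO under each treatment (median log2 fold changes −2.42, −2.44 and −3.13 under FAC), and 1, 1 and 0 higher. On the third principal component (7.42% of the variance) the KO libraries split into KO FAC 5, KO FAC 6 and KO AC 1 on one side and the rest on the other, and counts of called genes are given below also without pairs of KO libraries.

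Per length, the order of the 9 genes was shared by the 4 groups except for Slc25a37 and for Nfs1 and Isca2, which changed places. Iscu was the highest in every group, at 94.9 ± 6.30 FPKM in KO FAC, 100.2 ± 10.5 FPKM in KO AC, 91.9 ± 3.35 FPKM in WT FAC and 84.2 ± 1.69 FPKM in WT AC (mean ± SD, n = 3 each). Glrx5 came second in all 4 groups, at 63.9 to 74.8 FPKM, and Slc25a28 came last, at 8.87 to 11.9 FPKM. Hscb stood just above it, at means of 12.3 FPKM in WT AC to 19.98 FPKM in KO FAC. Slc25a37 was the third highest in both WT groups, at 62.0 FPKM in WT FAC and 52.4 FPKM in WT AC, where its libraries overlapped those of Nfu1 in both groups and those of Glrx5 in WT FAC. In KO cells it lay at 29.8 FPKM under FAC and 28.0 FPKM under AC, overlapping Isca2 and Nfs1 in both groups. Nfs1 stood below Isca2 in KO FAC (23.2 and 29.0 FPKM) and in KO AC (27.6 and 29.3 FPKM), and above it in WT FAC (31.8 and 28.9 FPKM) and WT AC (33.6 and 30.3 FPKM). In KO AC their libraries overlapped (26.2 to 28.4 and 27.7 to 31.7 FPKM). Among neighbours in this order not yet named the libraries of KO FAC overlapped for Nfs1 and Hscb, and every other pair of neighbours was separate.

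**Figure D1:**
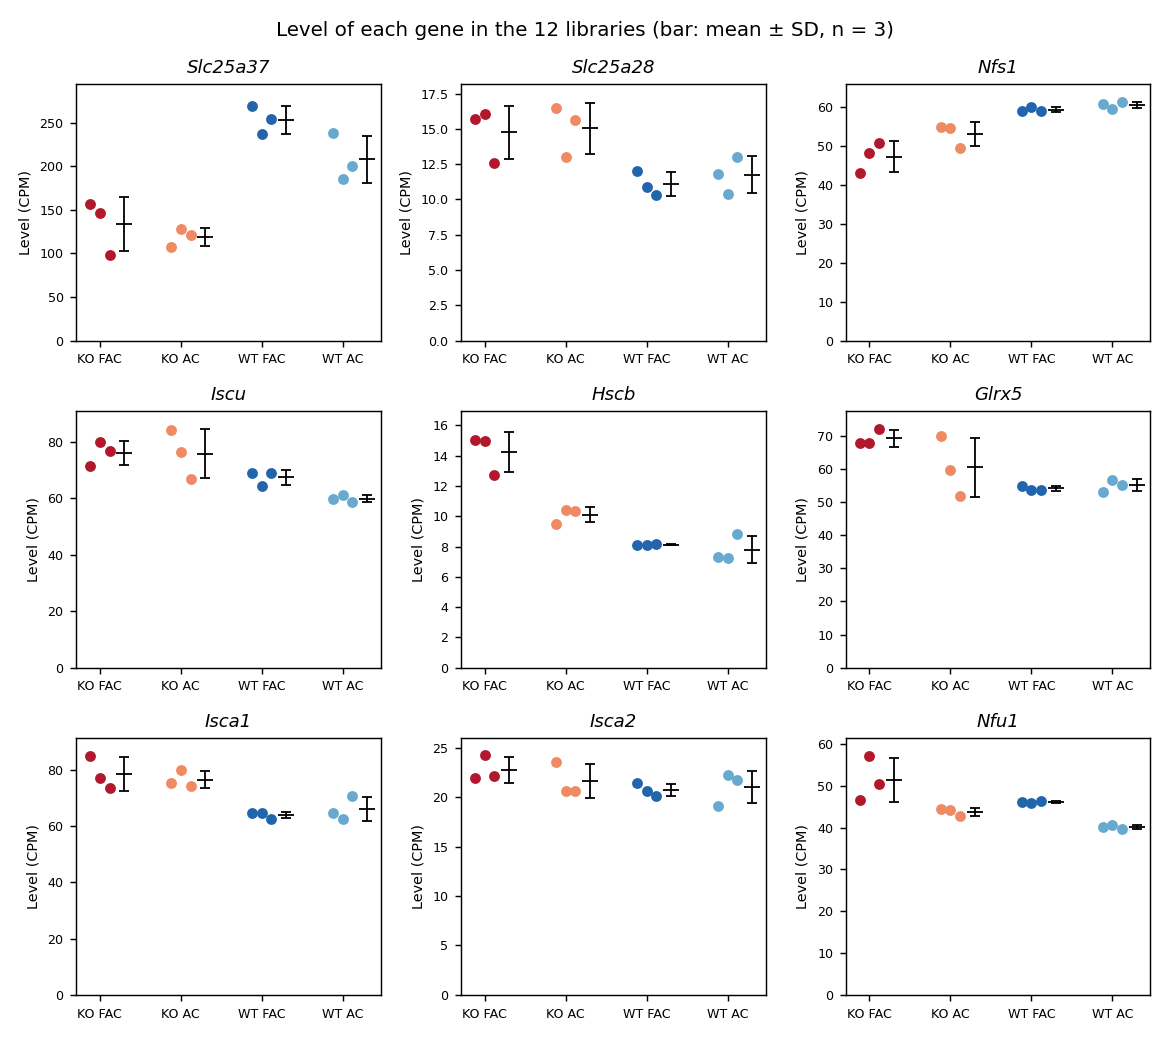
Level of each of the 9 genes in CPM (vertical axes, from 0, a scale per panel) in the 3 libraries of each group (points), with mean ± SD beside them. Slc25a37 and Nfs1 lie lower in KO FAC and KO AC than in the WT group of the same treatment, and Hscb is highest in KO FAC.

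Fxr-/- cells differed from WT cells at 6 of the 9 genes under FAC and at 6 under AC. Under FAC, Hscb, Slc25a28, Glrx5 and Isca1 were called higher in KO, and Slc25a37 and Nfs1 lower. Under AC, Hscb, Slc25a28, Iscu and Isca1 were called higher, and Slc25a37 and Nfs1 lower. Calls of this kind were frequent: 49.5% of all tested genes were called between genotypes under FAC (24.6% higher and 24.9% lower in KO) and 42.9% under AC (21.7% higher and 21.2% lower). The same direction was called under both treatments for 5 of the 9 genes, against 31.4% of all genes. None of the 9 was called with a change of 2-fold or more, which 12.3% of genes showed under FAC and 10.2% under AC. In CPM the KO and WT libraries did not overlap for all 9 genes under FAC and for 6 under AC, where 59.1% and 53.0% of all genes did not overlap. In FPKM the libraries of Iscu, Isca2 and Nfu1 overlapped under FAC. Under AC those of Isca1 and Nfu1 joined the genes that overlapped. For 4 genes, Slc25a37, Nfs1, Hscb and Isca1, all 6 KO libraries lay outside the 6 WT libraries in CPM, as they did for 25.9% of all genes. In FPKM this held for Slc25a37, Nfs1 and Hscb but not for Isca1.

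Fewer of them were called between treatments. In KO cells Hscb and Nfu1 were called higher under FAC than under AC and none was called lower, where 29.6% of all genes were called (14.6% lower and 15.0% higher). In WT cells edgeR called none of the 9, where 17.2% of all genes were called (8.7% higher and 8.55% lower); Nfu1 was the 1 gene with an unadjusted p under 0.05, and neither DESeq2 nor limma on log2(FPKM + 1) called any. In CPM libraries under FAC and AC did not overlap for 2 genes in KO (Hscb and Nfu1) and for 2 in WT (Iscu and Nfu1), against 38.8% and 43.2% of all genes. In FPKM the KO libraries of Nfu1 overlapped. On that scale Nfs1 lay lower under FAC without overlap in both genotypes, as did Glrx5 in WT. The FAC effects of KO and WT cells differed for none of the 9 by edgeR, DESeq2 or limma, with 3.15% of all genes called and Hscb alone at an unadjusted p under 0.05. Without KO AC 1 and KO FAC 6 the counts of called genes among the 9 were 6 between genotypes under FAC, 5 under AC, 3 for FAC in KO, 1 for FAC in WT and 0 for the difference. Without KO AC 1 and KO FAC 4 they were 8, 5, 3, 1 and 1, and the last of these was Glrx5.

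**Figure D2:**
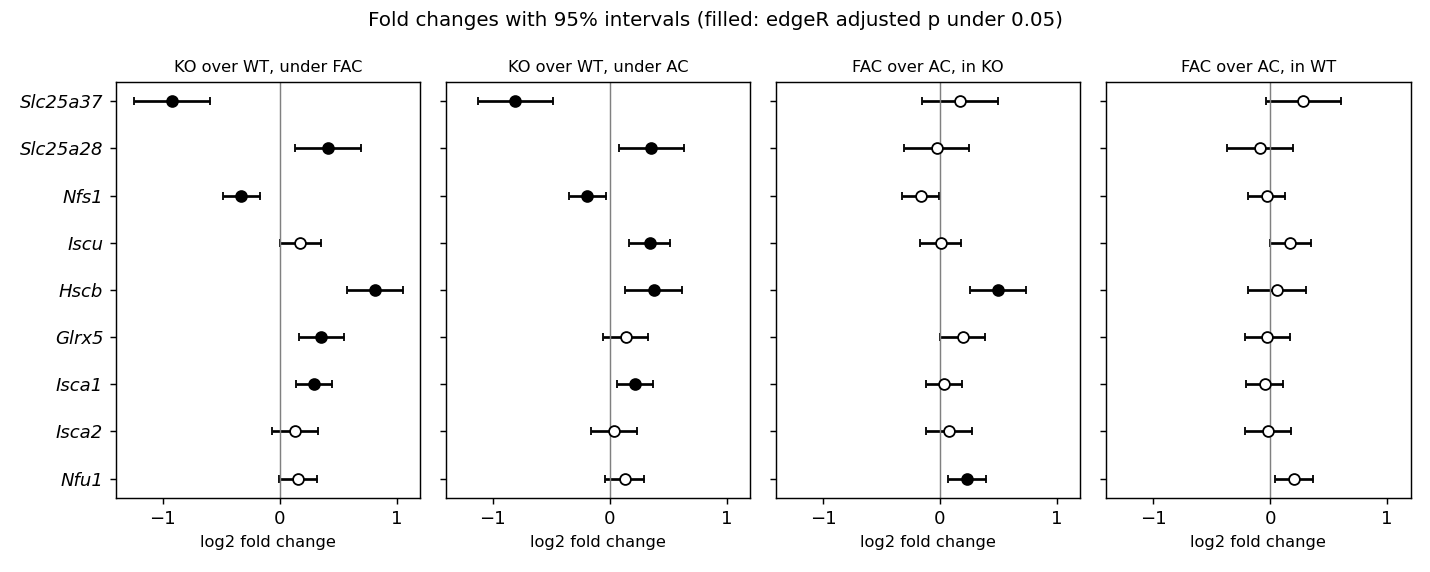
Log2 fold change of each of the 9 genes (horizontal axes) with its 95% interval in 4 comparisons, KO over WT under FAC and under AC, and FAC over AC in KO and in WT. Filled points passed an adjusted p of 0.05 by edgeR, and Slc25a37 lies at −0.92 and −0.81 in the comparisons of genotype.

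The share of calls in each direction depended on the scale. Of all genes called between KO and WT, 49.7% under FAC and 50.7% under AC were higher in KO by edgeR, 34.9% and 37.9% by limma on log2(FPKM + 1), and 28.2% and 32.2% on log2(TPM + 1). For FAC over AC the share called higher was 50.6% in KO and 50.4% in WT by edgeR, 33.9% and 41.3% on the FPKM scale, and 18.5% and 22.9% on the TPM scale. On the TPM scale the median log2 fold change of all genes lay at −0.17 between genotypes under FAC and −0.11 under AC, and at −0.15 for FAC in KO and −0.10 for FAC in WT. Values on that scale are therefore given below relative to this shift where they matter.

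The genes of mitochondrial iron import were called in opposite directions between genotypes. Slc25a37 encodes mitoferrin-1, the carrier of the inner mitochondrial membrane best known for supplying iron to red cell precursors, and Slc25a28 encodes mitoferrin-2, its paralog of broad expression. Slc25a37 (gene ID 67712, chromosome 14, 69241848 to 69285544, GRCm38.p6) was at 156.3, 146.7 and 98.7 CPM in KO FAC, 107.6, 127.6 and 121.4 CPM in KO AC, 269.2, 236.7 and 254.1 CPM in WT FAC, and 237.9, 185.2 and 200.7 CPM in WT AC libraries. Every KO library was lower than every WT library, whichever the treatment. Relative to WT, Slc25a37 fell in KO under FAC (log2 fold change −0.92 ± 0.15, edgeR adjusted p = 0.000283) and under AC (−0.81 ± 0.15, edgeR adjusted p = 0.000996), to 0.528 and 0.572 of the WT level. Both calls held under every alternative tried, and relative to the median of all genes on the TPM scale the log2 fold changes were −0.96 and −0.82. Of all tested genes, 85.2% changed less under FAC and 84.8% less under AC.

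For FAC over AC the values of Slc25a37 were 0.17 ± 0.15 in KO (edgeR adjusted p = 0.409) and 0.28 ± 0.15 in WT (edgeR adjusted p = 0.206), with libraries that overlapped in both. Without KO FAC 6 the change was called in KO (0.35, edgeR adjusted p = 0.0249) and in WT (0.28, edgeR adjusted p = 0.0447). The WT value itself stayed at 0.28, and a fit of the WT groups alone also called it (0.28, edgeR adjusted p = 0.0436). Among the 9 genes only Slc25a37 had estimated counts that were not whole, in 11 of 12 libraries; RSEM gives such values where reads are divided between loci. In the reference annotation it overlaps the long noncoding RNA genes Gm27222, Gm31896 and Gm31748, which are not analysed here, and whether counting used strand is not given in the sources used here.

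Because mitoferrin-1 is known from erythroid cells, their markers are given beside it. The sum of the 6 erythroid markers measured, of 10 listed, ranged from 21.8 to 26.7 CPM in KO FAC, 14.7 to 19.7 CPM in KO AC, 2.29 to 3.84 CPM in WT FAC and 2.79 to 3.60 CPM in WT AC libraries, the order opposite to that of Slc25a37 between genotypes. Nearly all of it was Alas2, the erythroid form of the first enzyme of haem synthesis, at 23.9, 17.2, 2.83 and 2.83 CPM on average in the same order. The globin gene Hba-a1 had 0 to 2 reads per library and Slc4a1, the red cell anion exchanger gene, was at 0 in 10 of 12 libraries. In bulk RNA, fewer cells of a type and less RNA per cell cannot be told apart. Hepatocyte markers also moved with genotype, with 6 of 7 called higher and 1, Alb, called lower in KO under each treatment. They moved with treatment too: 7 of 7 were called higher under FAC in KO (median log2 fold change 0.67), and 5 higher and 1 lower in WT (median 0.45). Most of their summed level was Alb, at 21970 CPM on average in KO FAC, 18190 in KO AC, 27930 in WT FAC and 20420 in WT AC. The sums of these markers ranged from 32520 to 33050 CPM in KO FAC, 24880 to 26500 CPM in KO AC, 31730 to 33560 CPM in WT FAC and 22880 to 24220 CPM in WT AC. The part of these and the other cell type markers in the differences of the 9 genes, between genotypes and between treatments, was not tested.

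Slc25a28 (gene ID 246696, chromosome 19, 43663801 to 43675006) was lower in abundance and differed the other way. Its libraries read 15.7, 16.02 and 12.6 CPM in KO FAC, 16.5, 13.0 and 15.6 CPM in KO AC, 12.02, 10.9 and 10.3 CPM in WT FAC, and 11.8, 10.4 and 13.0 CPM in WT AC. KO FAC and WT FAC did not overlap, while KO AC 2 and WT AC 3 met at 13.0 CPM. It rose in KO under FAC (log2 fold change 0.41 ± 0.13, edgeR adjusted p = 0.0181) and under AC (0.36 ± 0.13, edgeR adjusted p = 0.0397). The call under FAC was lost without WT FAC 5 (0.0531), WT FAC 6 (0.0675) or KO FAC 5 (0.0723) and on the TPM scale (0.0727), these being adjusted p values. That under AC was lost under 11 alternatives, among them leaving out KO AC 3, WT FAC 5, WT AC 2, KO AC 1 or WT AC 1, with adjusted p from 0.0525 to 0.141. Relative to the median of all genes on the TPM scale, Slc25a28 in KO over WT was 0.44 under FAC and 0.35 under AC, which was not tested. FAC over AC gave −0.03 ± 0.13 in KO and −0.08 ± 0.13 in WT by edgeR, neither called.

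Taken as a ratio of FPKM within a library, Slc25a37 over Slc25a28 was 2.85, 2.60 and 2.33 in KO FAC, 1.99, 2.99 and 2.23 in KO AC, 7.08, 6.46 and 7.47 in WT FAC, and 6.45, 5.24 and 4.71 in WT AC. The highest KO ratio lay below the lowest WT ratio. Its mean was 2.59 ± 0.258 in KO FAC, 2.40 ± 0.520 in KO AC, 7.003 ± 0.506 in WT FAC and 5.46 ± 0.894 in WT AC (SD, n = 3 each). The ratio combines differences already tested gene by gene and was not tested again.

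**Figure D3:**
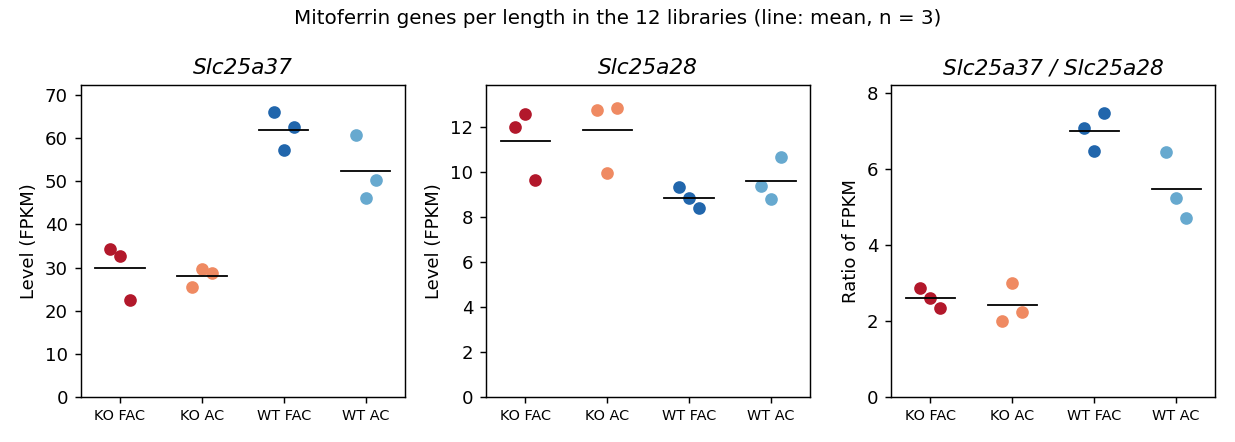
Slc25a37 and Slc25a28 in FPKM, and their ratio, in the 3 libraries of each group (points, with the mean as a line; axes start at 0). The ratio lies between 1.99 and 2.99 in the 6 KO libraries and between 4.71 and 7.47 in the 6 WT libraries.

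Upstream of the Slc25a28 transcript RefSeq's promoter window on GRCm38.p6 gives 125 bases before the first annotated base of the gene, on the minus strand at chr19:43675007-43675131. They are shown because they hold 2 CCAAT boxes, the motif most shared among these genes, and capitals mark them. A further match in the window lies beyond the printed bases.
Slc25a28: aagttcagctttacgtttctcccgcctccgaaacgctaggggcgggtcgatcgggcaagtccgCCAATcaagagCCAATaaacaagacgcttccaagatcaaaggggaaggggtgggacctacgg

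Sulfur enters the pathway through Nfs1, the desulfurase that takes it from cysteine. Nfs1 (gene ID 18041, chromosome 2, 156123637 to 156144202) was at 43.0, 48.2 and 50.7 CPM in KO FAC, 55.0, 54.7 and 49.5 CPM in KO AC, 59.0, 60.1 and 59.2 CPM in WT FAC, and 60.9, 59.7 and 61.3 CPM in WT AC libraries. All 6 KO libraries were lower than all 6 WT libraries, which spanned a narrow range. Nfs1 fell in KO under FAC, by 0.33 ± 0.07 on the log2 scale (log2 fold change −0.33, edgeR adjusted p = 0.00224), a call kept under every alternative. Under AC it was also called lower (−0.19 ± 0.07, edgeR adjusted p = 0.0468). That call was lost under 14 alternatives, among them leaving out any 1 WT library, KO FAC 5, KO AC 3 or KO AC 2 (adjusted p 0.0602 to 0.160), with the same direction throughout. FAC over AC gave −0.17 ± 0.07 in KO (edgeR adjusted p = 0.105), called by limma on log2(FPKM + 1) at −0.25 (adjusted p = 0.0200), and −0.03 ± 0.07 in WT (edgeR adjusted p = 0.828).

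The start of Nfs1 lies head to head with Romo1, a gene of a small mitochondrial membrane protein (chromosome 2, 156144153 to 156145794), and their first bases overlap. Without a stated strand setting, reads in the overlap cannot be assigned to either gene with certainty. Romo1 itself showed no such difference, at −0.00030 ± 0.11 between genotypes under FAC and 0.01 ± 0.11 under AC (log2 fold changes, neither called). A stretch of 30 bases on the Nfs1 strand at chr2:156144172-156144201, from RefSeq on GRCm38.p6, lies within that overlap and is shown because it holds 2 copies of an ETS core (CCGGAAG, here on the opposite strand, in capitals).
Nfs1: CTTCCGGagcacagcgcagttaCTTCCGGg

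Iscu, the scaffold on which clusters are assembled (gene ID 66383, chromosome 5, 113772418 to 113778288), was at 71.6, 80.02 and 76.7 CPM in KO FAC, 84.2, 76.5 and 66.7 CPM in KO AC, 68.9, 64.4 and 69.0 CPM in WT FAC, and 59.6, 61.2 and 58.6 CPM in WT AC libraries. Under each treatment the KO libraries lay above the WT libraries in CPM, while in FPKM those under FAC overlapped. The difference was called under AC (log2 fold change 0.34 ± 0.08, edgeR adjusted p = 0.00441) and held there under every alternative. Under FAC it was 0.17 ± 0.08 (edgeR adjusted p = 0.0904), and leaving out KO AC 1, KO AC 3 or KO FAC 4 brought the adjusted p to 0.0498, 0.0428 and 0.0475. WT FAC libraries all exceeded WT AC libraries (0.17 ± 0.08, edgeR adjusted p = 0.166), whereas KO FAC and KO AC overlapped (0.01 ± 0.08). These FAC effects differed by −0.17 ± 0.12 (KO minus WT), with a 95% interval from −0.42 to 0.08.

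Hscb showed the largest increase in KO among the 9 genes. Its protein is the co-chaperone that helps the mitochondrial Hsp70 protein release a cluster from Iscu. Hscb (gene ID 100900, chromosome 5, 110829070 to 110839793) was at 15.1, 14.97 and 12.7 CPM in KO FAC, 9.52, 10.4 and 10.4 CPM in KO AC, 8.07, 8.10 and 8.14 CPM in WT FAC, and 7.30, 7.25 and 8.81 CPM in WT AC libraries. KO FAC libraries were the highest, KO AC libraries lay next, and the WT groups overlapped below them. Relative to WT, Hscb rose in KO under FAC (log2 fold change 0.81 ± 0.11, edgeR adjusted p = 5.35e-05, 1.76-fold) and under AC (0.37 ± 0.11, edgeR adjusted p = 0.0173). It also rose under FAC in KO cells (0.50 ± 0.11, edgeR adjusted p = 0.00469), where WT cells gave 0.06 ± 0.12 (edgeR adjusted p = 0.780). The difference of these FAC effects, 0.44 ± 0.16 with a 95% interval from 0.10 to 0.78, had an unadjusted p of 0.0157 and did not pass over all genes (edgeR adjusted p = 0.149), so that a FAC effect particular to KO cells was not shown. The calls under FAC and in KO held under every alternative, and that under AC was lost without WT AC 1 (0.0616), WT AC 2 (0.0631) or KO AC 2 (0.0536), as adjusted p. Hscb was read at 134 to 247 estimated reads per library, the lowest depth of the 9 genes.

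Downstream of the scaffold, Glrx5, the glutaredoxin that accepts new clusters and passes them on, was called higher in KO under FAC. Glrx5 (gene ID 73046, chromosome 12, 105032618 to 105040911) was at 67.8, 67.7 and 72.1 CPM in KO FAC, 69.8, 59.7 and 51.9 CPM in KO AC, 55.0, 53.6 and 53.7 CPM in WT FAC, and 53.1, 56.7 and 55.2 CPM in WT AC libraries. KO FAC lay above WT FAC without overlap, whereas KO AC was spread on both sides of WT AC. Glrx5 rose in KO under FAC (log2 fold change 0.36 ± 0.09, edgeR adjusted p = 0.00487), a call lost on the TPM scale (0.15, limma adjusted p = 0.0897). Relative to the median of all genes on that scale the value was 0.32, which was not tested. The value under AC was 0.14 ± 0.09 (edgeR adjusted p = 0.233), and 0.24 without KO AC 3 (edgeR adjusted p = 0.0313). FAC over AC in KO gave 0.19 ± 0.09 (edgeR adjusted p = 0.116), and 0.31 without KO AC 1 (edgeR adjusted p = 0.00765), a library that alone was as high as KO FAC.

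The 250 bases before the Glrx5 start, on the plus strand at chr12:105032368-105032617 (RefSeq, GRCm38.p6), are shown because they hold 4 CCAAT boxes, the most among the 6 genes with a promoter window. Capitals mark the boxes, one of which is on the opposite strand and so reads ATTGG.
Glrx5: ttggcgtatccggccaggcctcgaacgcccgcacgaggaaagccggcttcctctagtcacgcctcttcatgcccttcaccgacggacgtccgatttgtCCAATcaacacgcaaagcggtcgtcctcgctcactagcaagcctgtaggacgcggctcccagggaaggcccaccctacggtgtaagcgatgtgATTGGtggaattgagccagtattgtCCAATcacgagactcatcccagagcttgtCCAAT

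Isca1 and Isca2 act together late in the pathway, where the larger clusters are made. Isca1 (gene ID 69046, chromosome 13, 59755415 to 59769789) was at 85.0, 77.1 and 73.4 CPM in KO FAC, 75.5, 79.9 and 74.3 CPM in KO AC, 64.6, 64.8 and 62.6 CPM in WT FAC, and 64.8, 62.6 and 70.8 CPM in WT AC libraries. In CPM every KO library exceeded every WT library. In FPKM WT AC 3 (41.93) lay above KO AC 1 (41.9), KO FAC 5 (40.29) and KO FAC 6 (39.47). Isca1 rose in KO under FAC (log2 fold change 0.30 ± 0.07, edgeR adjusted p = 0.00395) and under AC (0.21 ± 0.07, edgeR adjusted p = 0.0285). On the TPM scale neither was called, at 0.09 under FAC and 0.08 under AC (limma adjusted p = 0.262 and 0.365). Relative to the median of all genes on that scale the values were 0.26 and 0.19, which were not tested. The call under AC was lost under 8 alternatives in all. Their adjusted p was 0.0762 without WT AC 1, 0.104 without WT AC 2 and 0.1005 without KO AC 2, 0.139 and 0.141 by limma on log2(FPKM + 1) and log2(FPKM + 0.1), 0.0569 in a fit of the AC groups alone and 0.0574 with the replicate number as a block.

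Isca2 (gene ID 74316, chromosome 12, 84773230 to 84775089) was the gene that no comparison called under any alternative. Its libraries ranged from 21.9 to 24.3 CPM in KO FAC, 20.6 to 23.6 CPM in KO AC, 20.1 to 21.4 CPM in WT FAC and 19.1 to 22.2 CPM in WT AC. Between genotypes the log2 fold change was 0.13 under FAC, with a 95% interval from −0.06 to 0.33, and 0.04 under AC, from −0.16 to 0.23. Whether its change differed from that of Isca1 was not tested.

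Nfu1, the carrier that delivers clusters to clients such as lipoyl synthase, had higher levels under FAC than under AC in both genotypes. Nfu1 (gene ID 56748, chromosome 6, 87009234 to 87028461) was at 46.6, 57.1 and 50.5 CPM in KO FAC, 44.4, 44.2 and 42.7 CPM in KO AC, 46.2, 45.8 and 46.3 CPM in WT FAC, and 40.1, 40.6 and 39.7 CPM in WT AC libraries. In each genotype all FAC libraries exceeded all AC libraries in CPM. In FPKM KO FAC 4 (51.7) lay below the KO AC libraries (52.3 to 53.1), while the WT groups stayed separate. The change was called in KO (log2 fold change 0.23 ± 0.08, edgeR adjusted p = 0.0339) and not in WT (0.20 ± 0.08, edgeR adjusted p = 0.0829), and these effects differed by 0.03 ± 0.11, with a 95% interval from −0.20 to 0.26. The call in KO was lost under 10 alternatives, among them leaving out KO FAC 6, KO AC 3, KO FAC 5 or KO AC 2 (adjusted p 0.0554 to 0.165), while WT passed without KO FAC 4 (0.0461). In KO the value was 0.13 by limma on log2(FPKM + 1) (limma adjusted p = 0.154) and 0.03 on log2(TPM + 1) (limma adjusted p = 0.760). Relative to the median of all genes on the TPM scale the FAC effect of Nfu1 was 0.18 in KO and 0.17 in WT, which was not tested. Between genotypes the log2 fold change of Nfu1 was 0.16 ± 0.08 under FAC (edgeR adjusted p = 0.101) and 0.13 ± 0.08 under AC (edgeR adjusted p = 0.196), and without KO FAC 4 the value under FAC became 0.23 (edgeR adjusted p = 0.0189).

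RefSeq's table of promoter windows (250 bases before to 50 after a gene's start, GRCm38.p6) held 6 of the 9 genes: Nfs1, Nfu1, Isca1, Isca2, Glrx5 and Slc25a28. Iscu, Hscb and Slc25a37 had no entry. The window follows 1 transcript of each gene. Only those of Glrx5 (250 bases) and Slc25a28 (125 bases) begin with bases outside every annotated exon and outside the gene itself. Introns of other genes were not checked. Those of Nfs1 and Nfu1 lie in an annotated exon or the gene itself over all 300 bases, that of Nfu1 starting inside the gene at base 87009586 of chromosome 6. Those of Isca2 and Isca1 do so over 223 and 194 bases, so that matches in these 4 may lie in transcribed sequence. Letters were searched on both strands and set against all 32851 windows of the same length. CCAAT stood in 5 of the 6, every one but Nfs1, and in 37.4% of all windows. The ETS core CCGGAAG stood in 3 (Nfs1, Isca1 and Isca2) and in 8.86% of all windows, and the NRF1 element (GCGCA, any base, GCGC) in 2 (Nfu1 and Isca1) and in 4.6%. TGACNNNGC, the core of the antioxidant response element, stood in 2 (Nfs1 and Isca1) and in 12.4% of all windows. The inverted repeat bound by Fxr, 2 copies of AGGTCA facing each other with 1 base between, stood in none of the 6 and in 0.00913% of all windows, and its half-site AGGTCA in 1, Isca1, and in 16.3%. That window holds the half-site 2 times as a direct repeat with 1 base between, found in 0.0396% of all windows; this motif contains the half-site and was looked at after the match was seen. A match is a description of letters in these windows and not of binding.

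The rest of the mitochondrial assembly machinery was read from a list of 17 other genes, all tested. In KO cells 8 of them were higher and 1 lower under FAC than under AC (median log2 fold change 0.27, against −0.0020 over all genes), while none was called for FAC in WT (median 0.02). Over all genes 15.0% were called higher in KO and 8.7% in WT, and of the 22 mitochondrial reference genes described below 7 and 3. The 8 were Bola1, Bola3, Fdx1, Fdx1l, Fdxr, Gfer, Hspa9 and Ndufab1. Without KO FAC 5, KO AC 2 or KO AC 3 the count was 4 higher, as in a fit of the KO groups alone. On the FPKM scale with limma it was 5 higher and 2 lower, and on the TPM scale 2 higher and 3 lower. Between genotypes 5 were higher and 1 lower in KO under FAC, and 2 higher and 4 lower under AC.

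Fdxr, the reductase that feeds electrons to the ferredoxins of the pathway, was at 7.62, 7.91 and 7.51 CPM in KO FAC, 4.87, 4.70 and 4.48 CPM in KO AC, 4.80, 6.79 and 5.68 CPM in WT FAC, and 7.74, 6.87 and 6.51 CPM in WT AC libraries. KO AC libraries were low and KO FAC libraries were as high as WT AC. It rose under FAC in KO (log2 fold change 0.71 ± 0.14, edgeR adjusted p = 0.00253), was −0.29 ± 0.14 in WT (not called), and its FAC effects differed by 1.001 ± 0.20 (edgeR adjusted p = 0.0199). Bola1, a BolA-type partner of Glrx5, was at 26.8, 26.2 and 24.6 CPM in KO FAC, 17.0, 15.4 and 15.2 CPM in KO AC, 19.5, 18.6 and 18.7 CPM in WT FAC, and 15.97, 17.0 and 17.2 CPM in WT AC libraries. The KO FAC libraries lay above all others. Its FAC effect was 0.70 ± 0.08 in KO (edgeR adjusted p = 6.25e-05) and 0.18 ± 0.08 in WT (not called), and these differed by 0.52 ± 0.12 (edgeR adjusted p = 0.0322). Leaving out single libraries gave adjusted p from 0.0503 to 0.0527 for the difference of Fdxr (without WT FAC 4, WT FAC 6, KO AC 3 or KO FAC 5), and up to 0.0907 for that of Bola1 (without KO FAC 5, KO AC 2, KO AC 3, any 1 WT FAC library, or WT AC 2 or 3).

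Other genes of that list were called between genotypes. Fdx1, a ferredoxin, rose in KO under FAC (log2 fold change 0.72 ± 0.08, edgeR adjusted p = 1.27e-05) and under AC (0.48 ± 0.08, edgeR adjusted p = 0.000591). Gfer, a sulfhydryl oxidase of the intermembrane space, was higher in KO under FAC by 0.54 ± 0.08 on the log2 scale (edgeR adjusted p = 0.000124).

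Cytosolic assembly genes, 11 tested of 12 listed, gave 1 higher and 4 lower in KO under FAC, 2 and 2 under AC, 1 higher and 2 lower for FAC in KO, and 1 higher for FAC in WT. Ciao2b, part of the complex that hands clusters to cytosolic and nuclear clients, rose under FAC in both genotypes, by 0.54 ± 0.09 in KO (edgeR adjusted p = 0.000633) and 0.47 ± 0.09 in WT (edgeR adjusted p = 0.00247). Ciapin1 and its reductase Ndor1, the electron donors of that branch, were lower in KO under FAC, at −0.36 ± 0.10 and −0.44 ± 0.08 (edgeR adjusted p = 0.0094 and 0.000726).

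Clients that carry the clusters were counted in the same way. Of 15 mitochondrial clients, 3 were higher and 2 lower in KO under FAC, 2 and 3 under AC, 4 and 1 for FAC in KO, and 1 and 1 for FAC in WT. As shares of the list most of these lie near or below those of all genes, which were 24.6% higher and 24.9% lower under FAC, 21.7% and 21.2% under AC, 15.0% and 14.6% for FAC in KO, and 8.7% and 8.55% for FAC in WT. The same shares apply to the cytosolic assembly genes and the reference genes. Lias, lipoyl synthase, which depends on Nfu1 for its clusters, rose under FAC in KO (0.45 ± 0.07, edgeR adjusted p = 0.00047) and in WT (0.32 ± 0.07, edgeR adjusted p = 0.00707), where the call was lost on the TPM scale (0.18, limma adjusted p = 0.0745). Cisd1, an outer membrane Fe-S protein, was higher in KO under FAC (0.53 ± 0.10, edgeR adjusted p = 0.000747) and under AC (0.39 ± 0.10, edgeR adjusted p = 0.00818), and Ndufs1 of respiratory complex I was lower in KO under FAC (−0.41 ± 0.06, edgeR adjusted p = 8.94e-05).

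Cytosolic and nuclear clients were called lower in KO more often than higher. Of 24 tested, 3 were higher and 9 lower in KO under FAC (median log2 fold change −0.20), and 3 higher and 12 lower under AC (median −0.31), with medians of −0.01 and −0.0033 over all genes. Over all genes 24.6% were called higher and 24.9% lower in KO under FAC, and 21.7% and 21.2% under AC. FAC gave 1 higher and 4 lower in KO and 0 higher and 4 lower in WT. For these, the shares over all genes were 15.0% and 14.6% in KO, and 8.7% and 8.55% in WT. Ppat, which starts purine synthesis, fell in KO under FAC (−0.67 ± 0.09, edgeR adjusted p = 5.28e-05), Aox1, aldehyde oxidase, fell under FAC and AC (−0.81 ± 0.19 and −0.84 ± 0.19, edgeR adjusted p = 0.0042 and 0.00385), and Dpyd, which breaks down pyrimidines, rose in both (1.02 ± 0.12 and 0.77 ± 0.12, edgeR adjusted p = 1.73e-05 and 0.000188). Aco1, the cytosolic aconitase that binds iron-responsive RNA elements when its cluster is lost, averaged 114 ± 12.9 CPM in KO FAC, 155 ± 8.70 CPM in KO AC, 130 ± 3.68 CPM in WT FAC and 182 ± 4.65 CPM in WT AC (SD, n = 3 each). It fell under FAC in KO (−0.45 ± 0.08, edgeR adjusted p = 0.00107) and in WT (−0.49 ± 0.08, edgeR adjusted p = 0.000865). A list of 22 mitochondrial reference genes without a role in assembly, such as Vdac1 and Cs, gave 6 higher and 4 lower in KO under FAC, 4 and 5 under AC, 7 and 2 for FAC in KO, and 3 and 1 for FAC in WT.

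**Figure D4:**
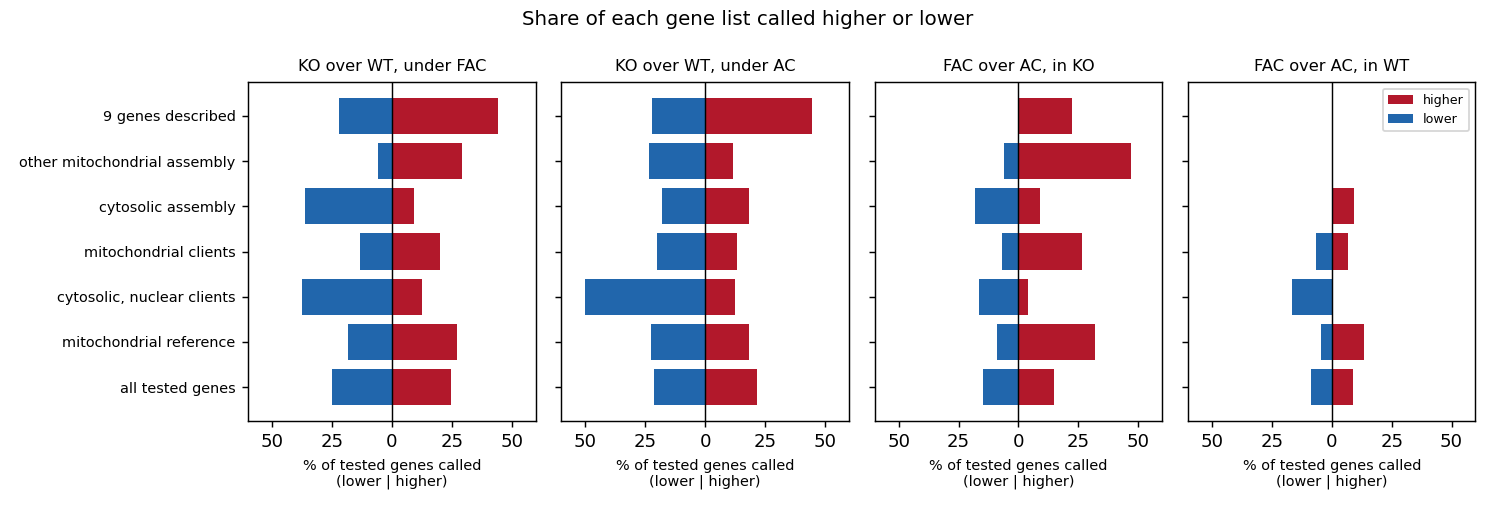
Percent of each list's tested genes called higher (right, red) or lower (left, blue) in 4 comparisons, KO over WT under FAC and AC, and FAC over AC in KO and WT, with all 12275 tested genes at the bottom. For FAC in KO, 8 of the 17 other mitochondrial assembly genes were higher, and in WT none.

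Genes whose pattern over the 12 libraries was nearest to a described gene were found by the root mean square difference of centred log2 CPM, for Hscb, called in 3 comparisons, and for Slc25a37 and Slc25a28. These were called in 2, as Nfs1 and Isca1 were, and were taken for their larger fold changes. Hscb was nearest to Gapdh (0.0854), Raet1e (0.103) and Gps2 (0.106). Slc25a37 was nearest to Ces2c (0.140), Ptpre (0.145) and Nop56 (0.156), and Slc25a28 to BC037034 (0.109), Plekha8 (0.115) and Tnk2 (0.118). Gapdh, a glycolytic enzyme gene, averaged 19040 CPM in KO FAC, 14690 CPM in KO AC, 10860 CPM in WT FAC and 10670 CPM in WT AC, the same order of groups as Hscb. Among the 12275 genes some pattern near to any gene is found, and the likeness is a description of these libraries.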

How the data were processed

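The submitters' processing notes name RSEM and the builds mm10 and GRCm38.p6 for these 12 mouse hepatocyte libraries, and the labels' protocols name BGISEQ-500 library preparation. The sources used here give no aligner, annotation release, strand setting or filter. The authors deposited estimated counts per gene without normalization, FPKM (divided by length and depth), and TPM. The 12 deposited columns of group means were not used.

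Estimated counts were rounded, TMM-scaled and tested in edgeR 4.0.16 (R 4.3.3): filterByExpr with a minimum count of 10 kept 12275 genes and removed 4453, and a robust quasi-likelihood model with trended dispersion was fitted to the 4 groups (biological coefficient of variation 10.8%). P-values were adjusted by Benjamini-Hochberg. The SE is the absolute log2 fold change divided by the square root of F. The 5 contrasts were KO against WT under FAC and AC, FAC against AC in KO and WT, and the difference of these FAC effects (KO minus WT). The genes described and the lists beside them were chosen with earlier results of these data known. From each list, up to 4 called genes with the largest folds in a comparison were named; others, named to complete a count, were chosen after their values were seen.

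Alternatives were median-of-ratios scaling, no filter, FPKM of at least 5 in 3 samples, limma 3.58.1 on log2(FPKM + 1), log2(FPKM + 0.1) and log2(TPM + 1), DESeq2 1.42.0, a fit of the compared groups alone, the replicate number as a block, and each library left out. Added after seeing the data were fits that left out KO AC 1 together with KO FAC 6 or with KO FAC 4. The model was checked on simulated data. No libraries within a group agreed within sampling noise. The listed genes Lto1, Vsig4, Lrat, Hbb-bs, Hbb-bt and Hba-a2 were not analysed here, and results for some listed genes are not reported here.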

Additional observations from a re-analysis of the deposited data

Results flagged for a closer look

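In the lists of Fe-S assembly, client and mitochondrial reference genes, FAC effects that differed between KO and WT cells (log2, KO minus WT) were found for Fdxr at 1.001, Bola1 at 0.52, Pole at 1.33, Clpp at 0.42 and Atp5b at 0.30, each called by edgeR over all genes. Every one of these calls was lost with the replicate number as a block (edgeR adjusted p 0.0604 for Fdxr, 0.107 for Bola1, 0.109 for Pole, 0.104 for Clpp and 0.12 for Atp5b) and when certain single libraries were left out. Pole, the catalytic subunit gene of a DNA polymerase, rests on few reads, at 1.46 to 1.96 CPM in KO FAC, 1.61 to 2.05 CPM in KO AC, 1.49 to 2.14 CPM in WT FAC and 3.51 to 5.18 CPM in WT AC. For Ndufs1 of complex I every FAC library lay below every AC library in KO (63.3 to 66.2 against 67.7 to 72.4 CPM) and above in WT (82.3 to 89.9 against 77.3 to 81.2 CPM); the difference of these effects, −0.22, was tested and not called. Outside these lists, the difference was also called for Hmox1, the haem oxygenase gene of the iron response (1.09, edgeR adjusted p = 0.0418), and for 1 hepatocyte and 1 cholangiocyte marker. None of the 9 genes had such a difference called.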

How the results depend on the processing

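For the 9 genes and 5 contrasts, 889 of 1008 values under an alternative kept their direction and side of the threshold, 52 lost a call, 23 gained one and 44 changed sign, all in results that were not called. A fit of the compared groups alone called 3352 genes for FAC in WT, 2 of the 9 among them (against 2117 and 0), 2198 for FAC in KO with 1 of the 9 (against 3633 and 2), and 3 of the 9 for KO against WT under AC. Without a filter 1 of the 9 was called for FAC in KO, and on the TPM scale 3 for KO against WT under FAC. The difference of FAC effects, with 387 genes called, gave 584 with limma on log2(FPKM + 1) and 678 with DESeq2. Leaving out 1 library, or 1 of the 2 added pairs, gave 2365 to 4780 calls for FAC in KO (1 to 3 of the 9), 1264 to 3169 for FAC in WT (0 to 1), 93 to 1932 for the difference (0 to 1), and 2 to 6 of the 9 for KO against WT under AC; the highest of the 3 counts came without KO AC 1 and KO FAC 4. The causes were not tested.

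Same-numbered libraries deviated together with correlations from −0.142 to 0.208 over 6 pairs of libraries, each a KO and a WT library of 1 treatment, and 3 of 12 libraries correlated best with their own number, so the numbers were not taken to pair the samples. With the replicate number as a block, 84 genes were called for the difference, and 6 and 4 of the 9 for KO against WT under FAC and AC.

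Signs changed as follows (log2). For FAC in KO, Iscu was −0.0024 without a filter, and −0.0751, −0.0758 and −0.179 with limma on log2(FPKM + 1), log2(FPKM + 0.1) and log2(TPM + 1). In the same order of scales Isca1 was −0.0515, −0.0526 and −0.154 and Isca2 −0.0126, −0.0130 and −0.114. Between genotypes under AC, Isca2 was −0.0490, −0.0505 and −0.0933, and the difference of FAC effects of Nfu1 was −0.0130, −0.0134 and −0.0382. On the TPM scale alone, FAC in WT gave −0.0599 for Hscb, FAC in KO −0.0334 for Slc25a37, KO against WT under AC −0.00769 for Glrx5 and −0.0133 for Nfu1, and under FAC −0.0253 for Iscu, −0.0647 for Isca2 and −0.0514 for Nfu1. Relative to the median of all genes these were 0.0415, 0.118, 0.102, 0.0959, 0.145, 0.106 and 0.119 in that order, with the sign of the main fit. Of the other TPM values, Iscu and Isca1 for FAC in KO stayed negative (−0.0274 and −0.0030). Isca2 was then 0.0368 for FAC in KO and 0.0159 between genotypes under AC, and the difference for Nfu1 was 0.0169. With 1 library or an added pair left out, FAC in KO ranged from −0.0215 to 0.0825 for Isca1, −0.0797 to 0.143 for Iscu, −0.125 to 0.149 for Slc25a28 and −0.00968 to 0.350 for Slc25a37. FAC in WT ranged from −0.0868 to 0.00371 for Isca1 and −0.0868 to 0.0178 for Isca2, and Isca2 between genotypes under AC from −0.0291 to 0.0810. The difference ranged from −0.0517 to 0.118 for Nfu1, −0.0382 to 0.231 for Slc25a28 and −0.297 to 0.0654 for Slc25a37.

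Depth limits Hscb and Slc25a28 most, with 134 to 247 and 180 to 287 estimated reads per library.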
